A study of Mus musculus with 15 samples.

Results

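The unfolded protein response genes examined here are 10 named genes, and every listed peak of open chromatin that carried one of their names was taken from the 4 deposited tables after repeated rows were dropped. Of the 10 genes, 6 were listed by name (Eif2ak3, Atf6, Xbp1, Atf4, Hspa5 and Sel1l), with 33 peaks of 41774 in the tables together, at 10 sites in the genome. The names Ern1, Ddit3, Dnajb9 and Herpud1 did not occur in any of the tables. Accessibility was read by ATAC-seq, which inserts sequencing adapters into open DNA with Tn5 transposase, on 40000 cells from isolated pancreatic islets per library, with males of 3 months. The KO-labelled mice were Arid1aFl/Fl; MIP-rtTA; TRE-Cre, with 4 libraries taken 6 days after partial pancreatectomy (PPx) and 3 before PPx. Their controls were Arid1aFl/Fl; MIP-rtTA without Cre, with 4 libraries after and 4 before PPx. All mice, controls included, carried floxed Arid1a, whose product is part of the SWI/SNF chromatin remodeller. All drank doxycycline (1 g/L) for 2 weeks, and PPx came 1 week after it was withdrawn. MIP is the mouse insulin promoter, so rtTA, and through it Cre, is driven in beta cells, while the islets also hold other cell types with no such driver. PPx removes part of the pancreas, and the remaining beta cells then proliferate.

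The unfolded protein response is the reaction of a cell to misfolded protein in the endoplasmic reticulum (ER). Sensors in the ER membrane, PERK (Eif2ak3), IRE1 (Ern1) and ATF6, respond by lowering translation, by splicing the mRNA of the transcription factor XBP1 and by releasing an active fragment of ATF6. The factors ATF4, XBP1, ATF6 and CHOP (Ddit3) then act on genes for chaperones such as BiP (Hspa5) and for ER-associated degradation such as Sel1l and Herpud1. Beta cells make large amounts of proinsulin in the ER, and loss of PERK in mice and in humans leads to diabetes through beta cell failure.

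Several of these promoters are textbook examples of stress-responsive sequence, and the 250 bases before the start site are shown for the start sites with called differences (Hspa5, Sel1l and Ddit3) and for Eif2ak3 and Herpud1, whose peaks came close to the threshold. They are the RefSeq promoters of build GRCm38.p6 (mm10), 5′ to 3′ on the gene's strand, ending at the base before the start site. They cover chr2:34771840-34772089 (plus strand) for Hspa5, chr12:91849158-91849407 (minus) for Sel1l, chr10:127290543-127290792 (plus) for Ddit3, chr6:70844265-70844514 (plus) for Eif2ak3 and chr8:94386179-94386428 (plus) for Herpud1. Capitals mark matches to the motifs searched on both strands. For Herpud1 the motifs overlap, since the match to ERSE-II begins with a CCAAT box on the opposite strand.
Hspa5: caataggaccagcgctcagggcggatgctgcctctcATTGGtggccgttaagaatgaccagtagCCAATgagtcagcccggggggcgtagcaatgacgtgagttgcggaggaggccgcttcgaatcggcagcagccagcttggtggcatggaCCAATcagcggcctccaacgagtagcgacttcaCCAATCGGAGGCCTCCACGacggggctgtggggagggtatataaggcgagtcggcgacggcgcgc
Sel1l: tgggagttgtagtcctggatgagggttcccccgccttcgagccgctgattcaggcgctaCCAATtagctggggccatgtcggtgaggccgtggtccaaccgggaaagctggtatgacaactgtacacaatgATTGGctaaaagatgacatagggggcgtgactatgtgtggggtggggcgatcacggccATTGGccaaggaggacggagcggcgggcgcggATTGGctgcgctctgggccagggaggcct
Ddit3: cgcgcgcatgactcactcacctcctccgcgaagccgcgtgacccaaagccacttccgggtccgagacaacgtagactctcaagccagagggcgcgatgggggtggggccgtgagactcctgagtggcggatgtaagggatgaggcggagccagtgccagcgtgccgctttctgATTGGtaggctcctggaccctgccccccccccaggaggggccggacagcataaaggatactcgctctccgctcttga
Eif2ak3: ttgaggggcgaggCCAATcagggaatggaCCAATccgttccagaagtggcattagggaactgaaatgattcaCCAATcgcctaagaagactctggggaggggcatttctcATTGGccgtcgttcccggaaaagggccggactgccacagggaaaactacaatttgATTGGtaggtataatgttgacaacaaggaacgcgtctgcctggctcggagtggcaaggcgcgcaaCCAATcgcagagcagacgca
Herpud1: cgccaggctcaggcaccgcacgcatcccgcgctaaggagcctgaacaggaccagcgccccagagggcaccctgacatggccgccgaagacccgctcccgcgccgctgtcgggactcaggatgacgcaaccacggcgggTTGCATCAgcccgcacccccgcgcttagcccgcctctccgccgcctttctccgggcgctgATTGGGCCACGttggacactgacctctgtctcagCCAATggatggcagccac

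The motifs were the ER stress response element ERSE (CCAAT, 9 bases of any kind, then CCACG), ERSE-II (ATTGG, any base, then CCACG), the unfolded protein response element UPRE (TGACGTGG), the cyclic AMP response element CRE (TGACGTCA), the element CARE read by ATF4 dimers (TGATGNAA), and the CCAAT box alone. The window ran from 250 bases before to 50 after the start site. A promoter in RefSeq's table was matched for 9 of the 10 genes. Hspa5 had 1 ERSE, at bases -65 to -47 from the start site, which 0.13% of 27025 promoters of the same length held. Its CCAAT boxes numbered 4 in all, 1 of them inside the ERSE. Herpud1 had 1 ERSE-II at bases -52 to -42 (0.037% of promoters) and 1 CARE at bases -112 to -105 (4.06%). Eif2ak3 held 6 CCAAT boxes and Sel1l 4, while 1.14% of all promoters held 4 or more and 37.9% held at least 1. Ddit3 and Dnajb9 had 1 CCAAT box, Atf4 had 2, and Xbp1 and Ern1 had 0. No member window matched UPRE (0.607% of promoters) or CRE (1.88%). GC content of the member promoters ran from 51.0% at Xbp1 to 68.3% at Herpud1, against a median of 52.7% over all promoters. Only exact matches to these letters were counted, so elements that differ from them by a base are left out. The matches describe letters in the window and were not tested for binding.

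Values are the authors' group means in log2 normalised reads per peak, called log2 concentrations here, and every peak spans 601 bp, so levels can be set side by side across peaks of 1 table. The tables used here give group means only, so the spread over mice enters only through the p-values, which were read as measuring spread between 3 or 4 mice per group. The standard error (SE) beside a log2 difference is the one its deposited p implies. A peak was called where the authors' false discovery rate (FDR) was 0.05 or lower, and the tables also count the libraries of each group in which a peak was found. Median levels per table were 13.7 to 16.2 normalised reads, and the scaling of libraries and tables is not stated in the sources at hand. In the authors' deposited table, the Arid1a peak in exon 9 of 20 was at 4.04 in KO-labelled islets after PPx and at 0.40 in controls. Before PPx it was at 5.49 in KO-labelled islets and 1.21 in controls in the authors' deposited table. The targeted gene's only peak was therefore higher in the KO-labelled group. Which exon is floxed is not in the labels, so this peak checks nothing, and the group is called KO-labelled throughout.

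After PPx, open chromatin at unfolded protein response genes was higher in KO-labelled islets than in controls at 3 of the 9 listed member peaks, and no member peak was lower. The 3 were a distal peak upstream of Eif2ak3, with 2.45 times the control level in the authors' deposited table, the Hspa5 promoter with 2.07 times and the Sel1l promoter with 1.83 times. Of all 13111 peaks listed there, 9.89% were called higher. The share was 14.3% over 8050 promoter peaks and 28.8% over promoter peaks at a mean log2 concentration of 5 or more, where Hspa5 and Sel1l lie. The authors' FDR was at its ceiling for 4534 of the 13111 peaks. Among them was a distal Nkx6-1 peak with an unadjusted p of 0.00338, while Hspa5 with 0.00335 was called. Over the remaining peaks the share called is higher than 9.89%. The median log2 difference over the 9 member peaks was 0.87 (range 0.44 to 1.29, all above 0), beside 0.61 over all peaks and 0.71 over promoter peaks, in the authors' deposited table. The whole table was thus shifted towards KO-labelled islets. Relative to its median, 7 of the 9 member peaks were higher, by up to 0.68 at the distal Eif2ak3 peak, and none was still called. Calls on centred folds use p-values from the shifted fold and its SE. These were adjusted by Benjamini-Hochberg over all listed peaks, in place of the authors' FDR. Without centring, that adjustment left 1 of the 3 called. Of the 9, the Xbp1 promoter and the Eif2ak3 peak at 2 to 3 kb were each found in 2 KO-labelled and 0 control libraries. Their listing came through the group in which they are higher, so their sign was largely set by it. An unadjusted p under 0.05 was found at 5 of the 9 member peaks, against 33.6% of all peaks and 45.3% of promoter peaks. Beside this, peaks of beta cell markers (6 of 10 genes listed) summed to 228 normalised reads in KO-labelled islets and 138 in controls, and their median log2 difference of 0.61 was that of all peaks. In bulk islets, more cells of a type and more accessible chromatin per cell cannot be told apart.

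**Figure D1:**
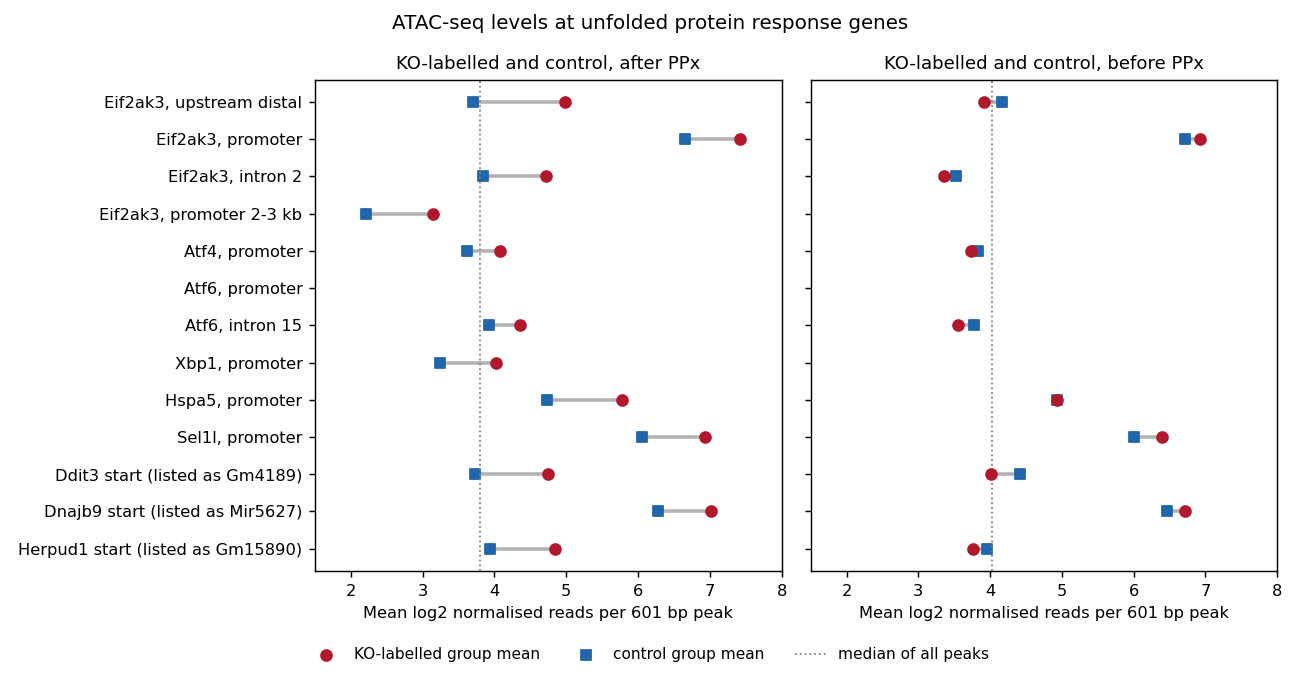
Group mean log2 normalised reads (horizontal axis) at each member site and at the start sites of Ddit3, Dnajb9 and Herpud1 (rows), in KO-labelled (circles) and control islets (squares), after PPx on the left and before PPx on the right; no error bars, since the tables give means only, and the dotted line is the median of all peaks. On the deposited scale every KO-labelled mean after PPx lies to the right of its control mean (Atf4 and the Atf6 intron fall below 0 once folds are centred on the table's median), while before PPx the KO-labelled mean lies right of the control mean at some sites and left of it at others.

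Before PPx, 0 of the 7 listed member peaks passed the threshold between KO-labelled islets and controls. The authors' deposited table gives an FDR of 1 for each of them, 0 of 7 had an unadjusted p under 0.05, and the log2 differences ran from -0.26 to 0.39 with a median of -0.09. Over all 7826 peaks 0.0128% were called higher (the Arid1a peak), over promoter peaks 0%, and the table's median difference was 0.00.

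Within the KO-labelled mice, 3 of 10 member peaks were higher after PPx than before it, and none was lower. They were the Eif2ak3 intron 2 peak with 2.87 times the level before PPx in the authors' deposited table, the distal Eif2ak3 peak with 2.55 times and the Hspa5 promoter with 2.11 times. Of all 12767 peaks of this comparison 7.45% were called higher, 9.73% of promoter peaks, and 12.5% of promoter peaks at a log2 concentration of 5 or more. The authors' FDR was at its ceiling for 2669 of the 12767 peaks, and over the remaining ones the share is higher than 7.45%. The median member difference was 0.93 (range 0.50 to 1.52, all above 0) beside 0.83 over all peaks and 0.86 over promoter peaks in the authors' deposited table. Relative to the table's median, 5 of the 10 member peaks were higher and 5 lower, and 0 of the 3 were still called. The Benjamini-Hochberg adjustment used with centring left 1 of the 3 called without it. With 1 peak per gene, 1 of 6 was called. The Xbp1 promoter and the Eif2ak3 peak at 2 to 3 kb were each found in 2 libraries after and 0 before PPx. Their listing thus favours differences above 0. An unadjusted p under 0.05 was found at 6 of the 10 member peaks, against 39.4% of all peaks and 46.2% of promoter peaks.

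In controls, 0 of 7 member peaks passed the threshold between islets after PPx and before it. Their FDR was 0.999 in the authors' deposited table, 0 of 7 had an unadjusted p under 0.05, and the log2 differences ran from -0.35 to 0.51 with a median of 0.18, beside 0.16 over all 8070 peaks. Of those peaks 0% were called higher, and of promoter peaks 0%. The comparisons share libraries: each group enters 2 of the 4 tables, so their values are not independent, and whether the difference between genotypes itself changed with PPx was not tested here.

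**Figure D2:**
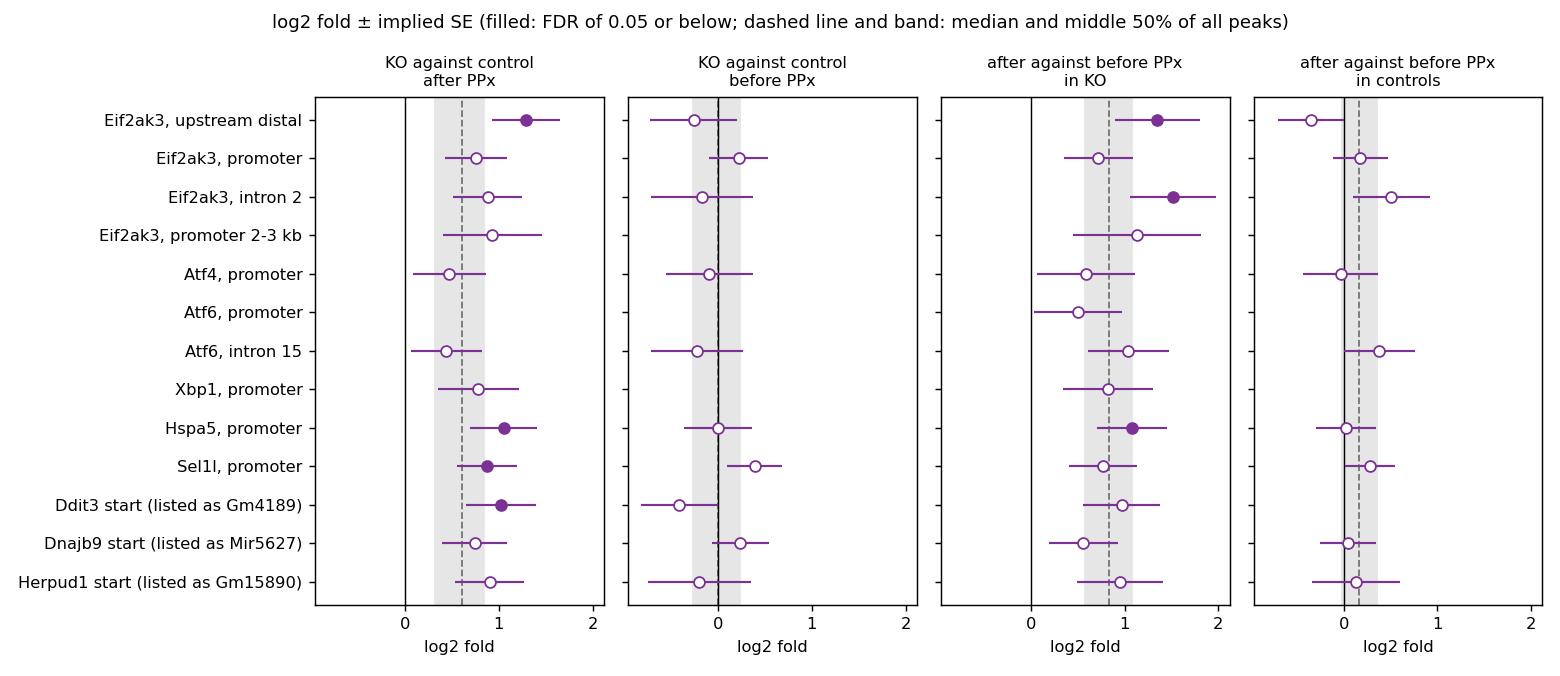
Log2 fold with its implied SE (horizontal axis) of each site (rows) in the 4 comparisons, with a dashed line and band for the median and middle 50% of all peaks. Filled points have an FDR of 0.05 or below: the upstream distal Eif2ak3 peak and the Hspa5 promoter in both comparisons with KO-labelled islets after PPx, the Sel1l promoter and the Ddit3 start site between genotypes after PPx, and the Eif2ak3 intron 2 peak between times in KO-labelled islets.

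Among the sensors, Eif2ak3 had the most peaks, at 4 sites. Its gene encodes PERK, the kinase that phosphorylates the translation factor eIF2alpha. The distal peak lay at chr6:70824360-70824960, with its centre at -19855 bp from the start site, in intergenic DNA by the deposited annotation. After PPx it was at 4.98 in KO-labelled islets and 3.70 in controls in the authors' deposited table (log2 difference 1.29, SE 0.36, FDR 0.0265). It was found in 4 of 4 KO-labelled and 2 of 4 control libraries. Before PPx the order was the other way, at 3.92 in KO-labelled islets and 4.17 in controls in the authors' deposited table (log2 difference -0.26, SE 0.46, FDR 1). In KO-labelled islets the authors' deposited table had it at 4.98 after and 3.64 before PPx (1.35, SE 0.45, FDR 0.0426). In controls it was at 3.69 after and 4.05 before PPx in the authors' deposited table (log2 difference -0.35, SE 0.35, FDR 0.999). In both tables with KO-labelled islets after PPx this group was the higher one, and in the other 2 tables the KO-labelled or later group had the lower mean, by about 1 SE or less.

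The Eif2ak3 peak in intron 2 of 16 (chr6:70872077-70872677) had its centre 27862 bp after the start site. After PPx the authors' deposited table gave it 4.72 in KO-labelled islets and 3.84 in controls (log2 difference 0.88, SE 0.37), which missed the threshold with an FDR of 0.0665. It was found in all 4 KO-labelled libraries and in 1 of 4 control libraries. Before PPx it was at 3.36 in KO-labelled islets and 3.52 in controls in the authors' deposited table (-0.17, SE 0.54, FDR 1). In KO-labelled islets it was at 4.72 after and 3.20 before PPx in the authors' deposited table (1.52, SE 0.46, FDR 0.0353), the largest difference among the member peaks of all 4 tables. In controls the authors' deposited table had it at 3.89 after and 3.38 before PPx (0.51, SE 0.41, FDR 0.999).

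The Eif2ak3 promoter (chr6:70844007-70844607) was the most accessible member site, above 99.8% of all peaks in level. After PPx it was at 7.42 in KO-labelled islets and 6.66 in controls in the authors' deposited table, or 171 normalised reads in KO-labelled islets and 101 in controls (log2 difference 0.76, SE 0.33, FDR 0.0749). It was found in every library of both groups. Before PPx the authors' deposited table gave 6.93 in KO-labelled islets and 6.71 in controls (0.22, SE 0.31, FDR 1). It was at 7.43 after and 6.71 before PPx in KO-labelled islets (0.72, SE 0.37, FDR 0.111) and at 6.70 after and 6.53 before PPx in controls (0.18, SE 0.29, FDR 0.999) in the authors' deposited table. No difference was called at the Eif2ak3 promoter. The remaining Eif2ak3 peak, 36616 bp after the start site, is annotated as a promoter at 2 to 3 kb. It was weak, at 3.14 in KO-labelled islets after PPx and 2.21 in controls in the authors' deposited table, and was listed in only the 2 tables that hold KO-labelled islets after PPx. After PPx it was found in 2 of 4 KO-labelled and 0 of 4 control libraries. The authors' deposited table gives it an FDR of 1 beside a log2 difference of 0.93 (SE 0.53, unadjusted p 0.0774), while Xbp1 with a p of 0.0696 has an FDR of 0.138, so the deposited FDR does not follow from the listed p alone.

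**Figure D3:**
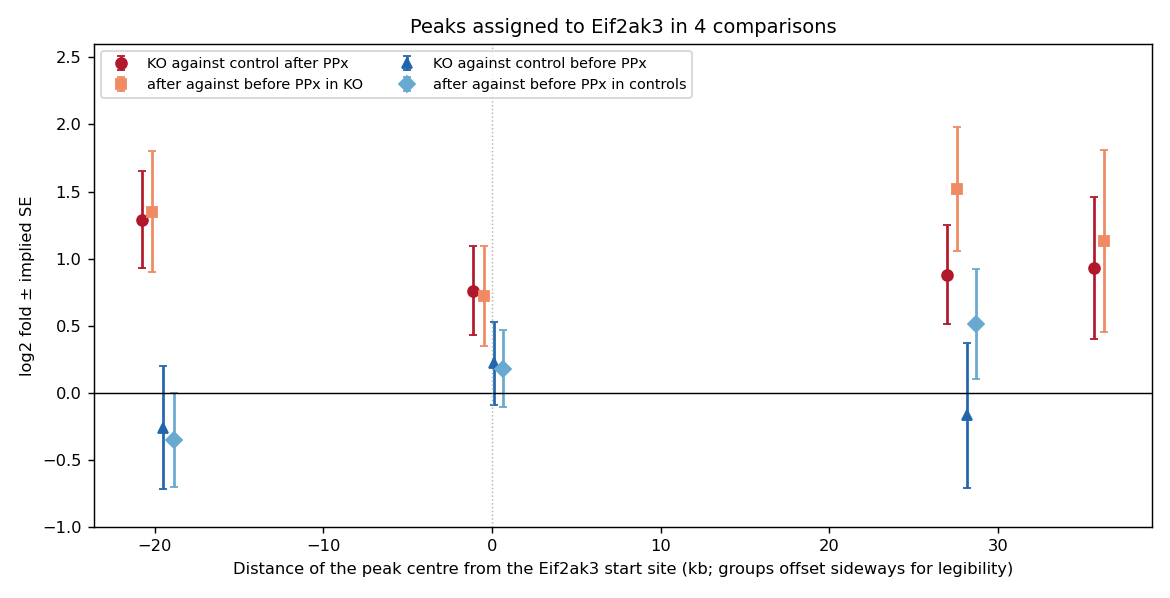
Log2 fold with its implied SE (vertical axis) of the peaks assigned to Eif2ak3 against the distance of the peak centre from the start site in kb (horizontal axis), in 4 comparisons offset sideways. At the distal peak the 2 comparisons with KO-labelled islets after PPx are at 1.29 and 1.35 and the other 2 are at -0.26 and -0.35, and at the promoter all 4 are above 0 on the deposited scale, where centring by the table's median turns the value between times in KO-labelled islets to -0.11 and centring by class and level that between genotypes after PPx to -0.02.

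Atf6 encodes a sensor that travels to the Golgi and is cut there to release a transcription factor. Its peak in intron 15 of 15 (chr1:170741187-170741787) was at 4.36 in KO-labelled islets after PPx and 3.92 in controls in the authors' deposited table (log2 difference 0.44, SE 0.38, FDR 0.320). Before PPx it was at 3.55 in KO-labelled islets and 3.77 in controls in the authors' deposited table (-0.22, SE 0.49, FDR 1). In KO-labelled islets it was at 4.36 after and 3.32 before PPx in the authors' deposited table (1.04, SE 0.43, FDR 0.0706), and in controls at 3.97 after and 3.59 before PPx (0.38, SE 0.38, FDR 0.999). The Atf6 promoter peak was listed only in the table of KO-labelled islets after and before PPx, at 3.79 after and 3.29 before PPx (0.50, SE 0.47, FDR 0.341) in the authors' deposited table, and was found in 1 library of each group. Atf6 thus had no called difference. Ern1, the gene of the sensor IRE1, had 0 listed peaks inside its body in every table. Its nearest listed peak lay 124318 bp away (Smarcd2) in both tables with KO-labelled islets after PPx, 180866 bp away before PPx and 312998 bp away in the table of controls.

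Among the transcription factors, Xbp1, whose mRNA IRE1 splices, had a promoter peak (chr11:5520555-5521155) at 4.02 in KO-labelled islets after PPx and 3.24 in controls in the authors' deposited table (0.78, SE 0.43, FDR 0.138), found in 2 of 4 KO-labelled and 0 of 4 control libraries. It was at 4.02 after and 3.20 before PPx in KO-labelled islets in the authors' deposited table (0.82, SE 0.48, FDR 0.154). The 2 tables without KO-labelled islets after PPx listed no Xbp1 peak. Atf4, which is translated when eIF2alpha is phosphorylated, had a promoter peak (chr15:80254854-80255454) at 4.08 in KO-labelled islets after PPx and 3.61 in controls in the authors' deposited table (0.47, SE 0.39, FDR 0.309). That difference is 0.14 below the table's median. Within KO-labelled islets Atf4 was at 4.10 after and 3.51 before PPx in the authors' deposited table (0.59, SE 0.52, FDR 0.315), which is 0.24 below that table's median. Atf4 was at 3.74 in KO-labelled islets and 3.83 in controls before PPx (-0.09, SE 0.46, FDR 1), and at 3.66 after and 3.69 before PPx in controls (-0.03, SE 0.40, FDR 0.999) in the authors' deposited table. Neither factor had a called difference.

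The start site of Ddit3, the gene of the factor CHOP, lies inside a peak that the tables name Gm4189 (chr10:127290325-127290925). In the authors' deposited table that peak was at 4.75 in KO-labelled islets after PPx and 3.73 in controls (log2 difference 1.02, SE 0.37, FDR 0.0459), found in 4 of 4 KO-labelled and 0 of 4 control libraries. Before PPx it was at 4.01 in KO-labelled islets and 4.42 in controls in the authors' deposited table (-0.41, SE 0.41, FDR 1). KO-labelled islets had it at 4.76 after and 3.78 before PPx in the authors' deposited table (0.97, SE 0.41, FDR 0.0741), and the table of controls listed no peak over this start site. The match by coordinates was made after the values were seen, and the tables assign the peak to Gm4189, so its signal cannot be assigned to Ddit3 alone.

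Among the chaperones, Hspa5 encodes BiP, which binds unfolded proteins and holds the sensors inactive. Its promoter peak (chr2:34771575-34772175) covers the printed ERSE. After PPx it was at 5.78 in KO-labelled islets and 4.73 in controls in the authors' deposited table, or 54.9 normalised reads in KO-labelled islets and 26.5 in controls (log2 difference 1.05, SE 0.36, FDR 0.0396). It was found in 4 of 4 KO-labelled and 2 of 4 control libraries. Before PPx both groups were at 4.93 in the authors' deposited table (0.00, SE 0.36, FDR 1). It was at 5.78 after and 4.70 before PPx in KO-labelled islets (1.08, SE 0.37, FDR 0.0468) and at 4.78 after and 4.75 before PPx in controls (0.03, SE 0.32, FDR 0.999) in the authors' deposited table. Its level was thus higher in KO-labelled islets after PPx than in both groups they were set against, and its means in the other comparisons differed by 0.03 or less. Once centred on the table's median, its log2 difference was 0.44 between genotypes after PPx and 0.25 between times in KO-labelled islets. Neither was still called, but the Benjamini-Hochberg adjustment used with centring also removed both calls without it.

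The promoters most like Hspa5 over its 8 group values, by Euclidean distance on the log2 scale among 4062 promoters listed in every table, were Gsk3a (0.19), Arhgef5 (0.21) and Dstn (0.21). The median distance was 2.28 and 789 promoters lay within 1. Dnajb9 encodes an ER co-chaperone of BiP (ERdj4), and its start site lies in a peak that the tables name Mir5627 (chr12:44209850-44210450). After PPx that peak was at 7.02 in KO-labelled islets and 6.28 in controls in the authors' deposited table (0.74, SE 0.35, FDR 0.0944). It was at 6.71 in KO-labelled islets and 6.47 in controls before PPx (0.24, SE 0.30, FDR 1) in the authors' deposited table. Within KO-labelled islets it was at 7.01 after and 6.46 before PPx (0.56, SE 0.37, FDR 0.197), and in controls at 6.32 after and 6.28 before PPx (0.05, SE 0.30, FDR 0.999), in the authors' deposited table. No difference at this site was called in any of the 4 tables.

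Of the genes of ER-associated degradation, Sel1l encodes the adaptor of the HRD1 ubiquitin ligase. Its promoter peak (chr12:91849013-91849613) was at 6.93 in KO-labelled islets after PPx and 6.06 in controls in the authors' deposited table, or 122 normalised reads in KO-labelled islets and 66.7 in controls (log2 difference 0.87, SE 0.32, FDR 0.0471). It was found in every library of both groups. Before PPx the authors' deposited table gave 6.40 in KO-labelled islets and 6.01 in controls (0.39, SE 0.29, FDR 1), the largest member difference of that table. It was at 6.94 after and 6.17 before PPx in KO-labelled islets in the authors' deposited table (0.77, SE 0.36, FDR 0.0934), 0.06 below the table's median. In controls it was at 6.11 after and 5.83 before PPx in the authors' deposited table (0.28, SE 0.27, FDR 0.999). The promoters most like Sel1l were Snora24 (0.14), Edem3 (0.18), itself a gene of ER-associated degradation, and Tfg (0.19), with a median distance of 5.52 and 134 promoters within 1.

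Herpud1 encodes an ER membrane protein of the same degradation pathway, and its start site lies in a peak that the tables name Gm15890 (chr8:94386122-94386722). After PPx it was at 4.84 in KO-labelled islets and 3.94 in controls in the authors' deposited table (0.90, SE 0.37, FDR 0.0650), found in 4 of 4 KO-labelled and 1 of 4 control libraries. Before PPx it was at 3.76 in KO-labelled islets and 3.96 in controls in the authors' deposited table (-0.20, SE 0.55, FDR 1). The authors' deposited table gave 4.83 after and 3.87 before PPx in KO-labelled islets (0.95, SE 0.46, FDR 0.102), and 3.91 after and 3.78 before PPx in controls (0.13, SE 0.47, FDR 0.999). No difference at the Herpud1 start site was called. The peak's centre was at -7 bp from the start site in the genotype table after PPx and at 240 bp in the genotype table before PPx, so the windows are not the same. The peaks over the Ddit3, Dnajb9 and Herpud1 start sites were added after the values were seen. With them, 4 of 12 peaks were called higher in KO-labelled islets than in controls after PPx, and 0 of 10 before PPx. Between times, 3 of 13 were called higher after PPx in KO-labelled islets and 0 of 9 in controls. The shares of all peaks called higher were 9.89%, 0.0128%, 7.45% and 0% in that order. Over promoter peaks they were 14.3%, 0%, 9.73% and 0%.

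**Figure D4:**
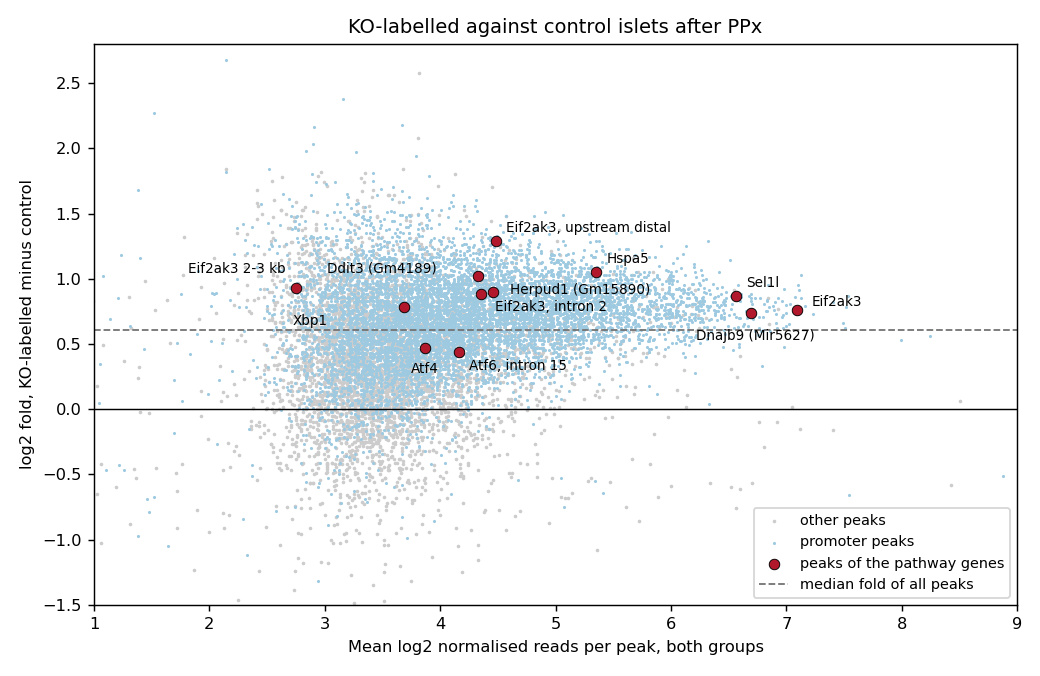
Log2 fold, KO-labelled minus control islets after PPx (vertical axis), against mean log2 normalised reads (horizontal axis). Promoter peaks are blue and other peaks grey, with the median fold of all peaks dashed, and 246 of 13111 peaks lie outside the axes. Red marks the member peaks and the peaks over the Ddit3, Dnajb9 and Herpud1 start sites, which carry other names. The red peaks lie within the cloud of all peaks, around and above its median of 0.61.

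Other genes of the pathway were read from 5 lists with 101 genes, of which 68 had 79 peaks in the comparison of genotypes after PPx. Of these peaks 13 were higher in KO-labelled islets and none was lower, with a median log2 difference of 0.74 in the authors' deposited table. Both the count and the median can be read beside 9.89% called and 0.61 over all peaks, or 14.3% and 0.71 over promoters. In ER-associated degradation 4 of 16 peaks were higher in KO-labelled islets than in controls (median 0.61). They were the promoters of Rnf139 (1.27, FDR 0.0286), an ER ubiquitin ligase, Selenos (1.18, FDR 0.0248), a selenoprotein of the dislocation complex, Herpud2 (1.01, FDR 0.0311) and Edem3 (0.90, FDR 0.0368), a mannosidase, in the authors' deposited table. Of the translocon and signal peptide list 3 of 16 were higher in KO-labelled islets (median 0.78), namely Spcs1 (1.33, FDR 0.0286) of the signal peptidase, Ssr4 (1.14, FDR 0.0396) and the channel subunit Sec61a1 (1.09, FDR 0.0387) in the authors' deposited table.

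The counts of the next 3 lists also stand beside 9.89% of all peaks and 14.3% of promoter peaks called higher. Among chaperones and folding enzymes 3 of 21 peaks, of which 19 were promoter peaks, were higher in KO-labelled islets than in controls after PPx (median 0.76). The called peaks were Dnajc1 (1.06, FDR 0.0393), the oxidase Ero1l (1.01, FDR 0.0413) and the disulfide isomerase Pdia6 (0.97, FDR 0.0469) in the authors' deposited table. The PERK and integrated stress response list had 2 of 11 (median 0.64), Eif2s1 (0.97, FDR 0.0436), which encodes the eIF2alpha that PERK phosphorylates, and Nck1 (0.91, FDR 0.0486) in the authors' deposited table. Of regulators of ATF6 and IRE1 1 of 15 was higher in KO-labelled islets (median 0.62), Map3k5 (1.04, FDR 0.0341), the kinase ASK1, in the authors' deposited table. Centred on the table's median of 0.61, 0 of the 13 peaks were still called. The Benjamini-Hochberg adjustment used with centring left 5 of the 13 called without it.

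Before PPx 0 of 58 peaks of these lists were called and 1 had an unadjusted p under 0.05. This was Atf6b, the paralog of Atf6, at 3.18 in KO-labelled islets and 4.13 in controls in the authors' deposited table (-0.95, SE 0.48, FDR 1). The lists' median difference was 0.01, and the most positive was Ubxn4 (0.58, SE 0.35, FDR 1), a scaffold of ER-associated degradation, in the authors' deposited table. Ssr4 (-0.51, SE 0.44) and Rnf139 (-0.39, SE 0.44), both called higher in KO-labelled islets after PPx, had the lowest differences of their lists here. Genes called after PPx did not share a direction before it. The Pdia6 promoter (0.39, SE 0.37) had the highest difference of its list, Map3k5 was at 0.32 (SE 0.42) and Ero1l at -0.04 (SE 0.36). Within KO-labelled islets 6 of 75 peaks were higher after PPx than before it, a share near the 7.45% called over all peaks and 9.73% over promoters. The median was 0.96 beside 0.83 over all peaks, and 0 of the 6 were still called once folds were centred on the table's median. The Benjamini-Hochberg adjustment used with centring left 2 of the 6 called without it. The 6 peaks were Fkbp14 (1.74, FDR 0.0295), Creb3 (1.36, FDR 0.0467), Sec61a1 (1.27, FDR 0.0486), Ero1l (1.19, FDR 0.0491), Selenos (1.16, FDR 0.0405) and Edem1 (1.07, FDR 0.0483) in the authors' deposited table. By list they were 2 of 19 chaperones and folding enzymes, 2 of 14 peaks of ER-associated degradation, 1 of 15 regulators of ATF6 and IRE1, 1 of 16 of the translocon and 0 of 11 of the PERK list, where the differences ran from 0.62 at Nck1 to 1.13 at Eif2ak1. The translocon gene Sec61a1, Ero1l and Selenos were called in both comparisons, which share the libraries of KO-labelled islets after PPx. In controls 0 of 60 peaks were called, 0 had an unadjusted p under 0.05, and the median was 0.17 beside 0.16 over all peaks, with a range from -0.64 at Rnf139 to 0.81 at Nfyc in the authors' deposited table.

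**Figure D5:**
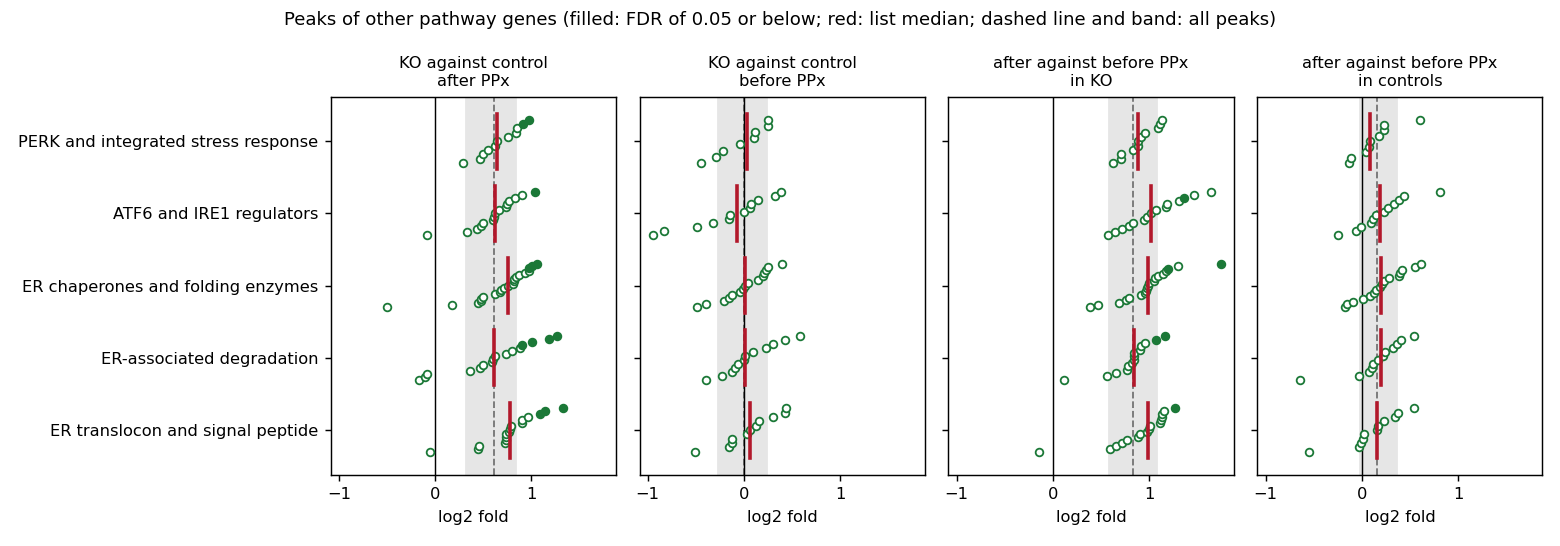
Log2 folds (horizontal axis) of the peaks of the 5 lists of other pathway genes (rows) in the 4 comparisons; filled points have an FDR of 0.05 or below, red bars are list medians, and the dashed line and band are the median and middle 50% of all peaks. Every list median lies inside the band, and filled points occur in the 2 comparisons with KO-labelled islets after PPx.

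Markers of islet cell types were read from the same tables. Of the 10 beta cell markers, Ins2, Iapp, Pdx1 and Slc2a2 were listed in none of the tables. In the comparison of genotypes after PPx, 2 of the 12 listed beta cell marker peaks were called higher, beside 9.89% of all peaks, and 6 of the 12 lay above the table's median. The called peaks were the promoters of Ins1 (log2 difference 1.49, FDR 0.0154) and Nkx6-1 (1.05, FDR 0.0360) in the authors' deposited table. Uncalled values there were 0.56 at the G6pc2 promoter, 0.38 at the Mafa promoter, 0.05 at the Ucn3 promoter and -0.15 at the Slc30a8 intron, the lowest of the list in the authors' deposited table. At distal peaks, none of them called, the values were 1.52 (the highest of the list) and 0.70 at Nkx6-1. They were 1.03, 0.66 and 0.29 at distal Slc30a8 peaks and 0.56 at the distal G6pc2 peak. The peak with 1.52 had an unadjusted p of 0.00338 but an FDR at its ceiling, and was found in 2 KO-labelled and 0 control libraries. Alpha cell markers (3 of 6 listed) summed to 58.5 in KO-labelled islets and 46.4 in controls, and the delta and PP list (1 of 4, the Sst peak, called higher) to 39.9 in KO-labelled islets and 18.4 in controls. Endothelial markers (3 of 5) summed to 61.0 in KO-labelled islets and 59.0 in controls, and stellate and fibroblast markers (2 of 5) to 46.1 in KO-labelled islets and 34.1 in controls. Ductal markers (1 of 5) were at 19.0 in KO-labelled islets and 15.8 in controls, and leukocyte markers (1 of 5) at 11.3 in KO-labelled islets and 5.90 in controls. Of 7 acinar markers 0 were listed in any table. Before PPx, beta cell markers (4 of 10 listed) summed to 72.2 in KO-labelled islets and 73.0 in controls, with 0 peaks called. Their log2 differences were 0.95 at Ins1 (unadjusted p 0.0307), 0.03 at G6pc2, -0.24 at Nkx6-1 and -1.45 at the Slc30a8 intron (unadjusted p 0.0011). The Sst peak was at 0.68 before PPx, also uncalled. In KO-labelled islets beta cell markers (5 of 10 listed) summed to 218 after PPx and 107 before PPx, with a median log2 difference of 1.08 beside 0.83 over all peaks. Alpha cell markers (3 of 6) summed to 58.5 after PPx and 33.3 before PPx, stellate and fibroblast markers (2 of 5) to 44.2 after PPx and 25.6 before PPx, and the delta and PP list (1 of 4) to 41.4 after PPx and 28.2 before PPx. Endothelial markers (3 of 5) were at 34.1 after PPx and 30.0 before PPx, ductal markers (1 of 5) at 9.65 after PPx and 5.98 before PPx, and leukocyte markers (1 of 5) at 11.3 after PPx and 9.65 before PPx. In the 2 comparisons with KO-labelled islets after PPx, no endothelial, ductal, leukocyte or Sst peak was a promoter peak. Only 1 of 4 alpha cell peaks and 1 of 3 stellate and fibroblast peaks were. The Sst, Irx2, Col1a2, Cdh5 and Plvap peaks were distal intergenic by the deposited annotation, so these sums rest largely on peaks away from the marker genes. The part of these marker shifts in the results at unfolded protein response genes was not tested.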

How the data were processed

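ATAC-seq libraries of 15 mice were grouped by sample title. Per the submitters' processing notes, cutadapt, BWA, MACS, DiffBind and ChIPseeker were used on mm10, with no versions or roles. The authors deposited 4 tables, 1 per comparison, holding the mean of each group in log2 normalised reads. The deposited p-values, FDR and counts of libraries with the peak were used as given. Depth is unknown, and the scaling and test method were not given in the sources used here.

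Repeated rows were dropped, which left 13111, 7826, 12767 and 8070 peaks (genotype after PPx, genotype before PPx, PPx in KO-labelled islets, PPx in controls). Deposited folds ran the other way and were reversed in sign, so positive means higher under the KO label or after PPx. The implied SE is the size of the fold over the normal quantile of its two-sided p-value. For a fold under 0.1 or a p-value at or over 0.95, the median SE of the peak's bin of 40 by concentration was used. All member peaks are named, and from each pathway list the called peaks or, with none called, the highest and lowest, of which the text gives the extremes. Members, lists and alternatives were chosen with earlier results of these data known. Scripts used python 3.11.15, pandas 2.3.3 and scipy 1.17.1, and were tested on simulated data.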

Additional observations from a re-analysis of the deposited data

How the results depend on the processing

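Every called difference rests on the authors' FDR of 0.05, on their scaling and, for genotype after PPx, on a table whose median log2 difference is 0.61. For KO-labelled islets against controls after PPx, the 3 called member peaks became 0 at an FDR of 0.01, 5 at 0.1 and 1 (the distal Eif2ak3 peak) with Benjamini-Hochberg adjustment over all listed p, and 0 with folds centred on the table's median or centred by class (promoter or not) and level. Their median of 0.87 became 0.26 and 0.14 under these centrings. The 13 other pathway peaks became 0, 39, 5, 0 and 0 in the same order. Between times in KO-labelled islets, the 3 member calls became 0, 5, 1 (the Eif2ak3 intron peak), 0 and 0, and 7 of 20 with repeated rows kept, 1 of 6 with 1 peak per gene and 1 of 7 over promoters. The median of 0.93 became 0.10 under both centrings, and the 6 other pathway peaks became 0, 42, 2, 0 and 0. Counts of 0 before PPx and in controls stayed 0 under every alternative run. Centring left 2 higher and 49 lower of all peaks for genotype after PPx (2 and 25 by class), and 0 and 0 between times. Both centrings also replace the authors' FDR by Benjamini-Hochberg adjustment over all listed peaks, so calls lost under them are not due to the shift alone.

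Uncalled differences turned sign by centring on the table's median and by class, in this order. For genotype after PPx they were Atf4 (-0.14, -0.20), the Atf6 intron (-0.17, median only) and the Eif2ak3 promoter (-0.02, class only), and before PPx the Eif2ak3 intron (0.01, class only). Between times in KO-labelled islets they were Sel1l (-0.06, -0.02), the Eif2ak3 promoter (-0.11, -0.07), Xbp1 (-0.01, -0.06), Atf4 (-0.24, -0.28) and the Atf6 promoter (-0.33, -0.38), and in controls Hspa5 (-0.13, -0.13). The cause was not tested. Leaving out replicates was not run, since the tables hold no values per library. No paired analysis was possible because the tables hold group means and the groups share no replicate numbers. Adding the peaks over the Ddit3, Dnajb9 and Herpud1 start sites was chosen after seeing the data.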
